A study of Mus musculus with 39 samples.

Results

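The genes described here are 40 components of protein folding and of the unfolded protein response in the endoplasmic reticulum (ER), measured in whole liver of mice given phenobarbital (PB). They were chosen by symbol. For each symbol the probe sets annotated with that gene alone were taken, and the one with the highest mean over all arrays represents the gene. All 40 had such a probe set among the 18193 genes that did, and all 40 were among the 12580 genes bright enough to be tested. By role they are 11 lumenal chaperones and co-chaperones, 6 disulfide isomerases and oxidases, 4 components of ER-associated degradation, 5 stress sensors and transcription factors, 4 targets of the ATF4-CHOP arm, and 10 components of the translocon, the translocon-associated TRAP complex and signal peptidase.

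The animals were male B6C3F1/Crl mice (a C57BL/6 by C3H/He cross), 29 to 32 days old on arrival and acclimatised for 5 days. PB livers came from mice with 0.05% (w/v) phenobarbital in their drinking water for 1, 7, 28 or 91 days, with 5 arrays at each time. Control livers came from mice labelled as controls at the same times, with 4 arrays at day 1 and 5 at each later day, 39 Affymetrix arrays in all. Phenobarbital activates the nuclear receptor CAR in hepatocytes and is a non-genotoxic promoter of mouse liver tumours. Values are log2 signals. Differences are PB minus control in log2 units, given with a standard error (SE), and were tested in limma across all 12580 genes, and a gene is called at a Benjamini-Hochberg adjusted p under 0.05. Whether every array is from its own animal is not stated in the labels. The p-values therefore reflect only how far these samples spread, which may be technical. An array gives no counts. Precision rests on how many arrays a group has and on how far a gene's values spread within the groups.

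The ER of hepatocytes makes the secreted plasma proteins and also holds the cytochromes P450 in its membrane, which phenobarbital is known to expand. When unfolded proteins accumulate, 3 sensors respond: IRE1 (Ern1) splices the mRNA of the transcription factor XBP1, ATF6 is cleaved into an active factor, and PERK (Eif2ak3) slows translation while raising ATF4. ATF6 and spliced XBP1 act on ER stress response elements (ERSE) before chaperone and isomerase genes, whereas ATF4 acts on C/EBP-ATF elements (CARE) before genes of amino acid supply and CHOP (Ddit3). An array measures total mRNA, so it reports neither the splicing of Xbp1 nor the cleavage of ATF6 nor the phosphorylation of PERK.

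Promoter windows of 250 bases before to 50 bases after the annotated gene start were matched in RefSeq (GRCm38.p6) for 34 of the 40 genes. The windows were searched on both strands for ERSE (CCAAT and CCACG with 9 bases of any kind between them), ERSE-II (ATTGG and CCACG with 1 base of any kind between them), the XBP1 element UPRE (TGACGTGG) and CARE (TGATGNAA). ERSE was found in 9 of the 34 promoters, against 0.119% of all 32851 promoters in the table, and ERSE-II in 2, against 0.0365%. CARE was found in 4, against 3.97%, and UPRE in 0, against 0.676%. The 9 with ERSE were Hspa5, Hsp90b1, Dnajc3, Calr, Canx, Creld2, Pdia6, Ero1b and Syvn1. The stretches below are shown because the values of the chaperone and ATF4 branches are later read against them. Each runs 5′ to 3′ along the gene's strand, with the match in capitals. A match on the other strand reads as the reverse complement, and Hsp90b1 holds 2.
Hspa5, ERSE, chr2:34772015-34772053, plus strand: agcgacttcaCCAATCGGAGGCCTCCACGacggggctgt
Hsp90b1, ERSE, chr10:86705523-86705666, minus strand: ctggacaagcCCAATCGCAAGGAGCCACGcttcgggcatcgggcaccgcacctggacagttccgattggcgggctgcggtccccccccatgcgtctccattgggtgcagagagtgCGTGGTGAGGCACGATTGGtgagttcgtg
Creld2, ERSE, chr15:88819510-88819548, plus strand: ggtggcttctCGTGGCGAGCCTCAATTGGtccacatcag
Canx, ERSE, chr11:50325790-50325828, minus strand: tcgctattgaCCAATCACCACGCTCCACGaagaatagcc
Dnajc3, ERSE, chr14:118937817-118937855, plus strand: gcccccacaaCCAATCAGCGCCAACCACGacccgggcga
Pdia6, ERSE, chr12:17266481-17266519, plus strand: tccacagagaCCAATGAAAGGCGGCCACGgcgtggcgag
Syvn1, ERSE, chr19:6046522-6046560, plus strand: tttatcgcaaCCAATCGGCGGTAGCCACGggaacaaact
Dnajb11, ERSE-II, chr16:22857842-22857872, plus strand: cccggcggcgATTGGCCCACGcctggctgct
Herpud1, ERSE-II, chr8:94386367-94386397, plus strand: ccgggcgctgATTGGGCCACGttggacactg
Chac1, CARE, chr2:119351039-119351066, plus strand: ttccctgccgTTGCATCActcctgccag
Trib3, CARE, chr2:152344029-152344056, minus strand: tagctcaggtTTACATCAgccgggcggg
Asns, CARE, chr6:7693215-7693242, minus strand: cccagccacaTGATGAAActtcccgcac
The Hspa5 stretch spans positions -75 to -37 from the gene start, and those of Trib3 (positions 5 to 32) and Dnajb11 (-3 to 28) lie wholly or mostly after it. Herpud1 also held a CARE. A match describes letters in these windows and does not show that a factor binds there.

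The treatment registered in the arrays of every time. Cyp2b10, the classical CAR target among the P450 genes, was higher in PB livers by 6.21, 6.36, 6.90 and 5.64 at days 1, 7, 28 and 91 (between 74.0-fold and 120-fold at the first 3 of these), with limma adjusted p of at most 2.32e-21. The electron donor of the P450s, Por, was not analysed here. Means of 8 hepatocyte markers lay between 14.42 and 14.58 in all 39 arrays. The mean of 9 exocrine pancreas genes was 10.89 in day 1 PB replicate 3 and at most 6.42 in every other array. Means of neutrophil genes (8.46) and Kupffer cell genes (10.56) were highest in day 7 PB replicate 3. In whole liver, fewer cells of a type and less RNA per cell cannot be told apart.

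Against that induction the ER folding genes moved little. At day 1, 3 of the 40 were called higher and 10 lower, where 15.8% of all tested genes were called higher and 16.7% lower. At day 7, 1 was higher and 4 were lower (background 5.64% and 11.4%), at day 28, 6 were higher and 3 lower (background 11.2% and 18.1%), and at day 91, 5 were higher and 1 lower (background 4.62% and 16.1%). Their median difference was -0.07, -0.06, 0.11 and 0.05 at the 4 times, where that of all tested genes was 0.01, -0.05, -0.02 and -0.07. After median centring of each array, the higher and lower counts were 4 and 7 at day 1, 2 and 2 at day 7, 10 and 2 at day 28, and 7 and 0 at day 91, and with quantile normalisation 2 and 3 at day 7. The shares of all tested genes under median centring were 21.3% and 12.6% at day 1 and 7.4% and 6.99% at day 7. They were 15.4% and 13.4% at day 28 and 6.3% and 8.55% at day 91. Under quantile normalisation they were 7.09% and 8.58% at day 7. In all, 25 genes were called at 1 time or more and 15 at none, 19 were called at a single time, and 0 were called in both directions. Of the 29 genes with more than 1 probe set, 20 had another one called at 1 time or more in a fit over all probe sets of the array. That held for 6 of the 15 genes called at no time (Hsp90b1, Hyou1, Pdia3, Xbp1, Spcs1 and Spcs2), so counts of calls here belong to the probe set used. Only Ern1 and Sec63 were called at 3 times. The shares of all tested genes or of all probe sets for these counts over the 4 times were not computed. The counts therefore describe these genes only. The 95% interval of the difference lay within ±0.5, a 1.41-fold change, for 26, 27, 29 and 31 of the 40 at the 4 times, and within ±1 for 37, 35, 39 and 36.

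**Figure D1:**
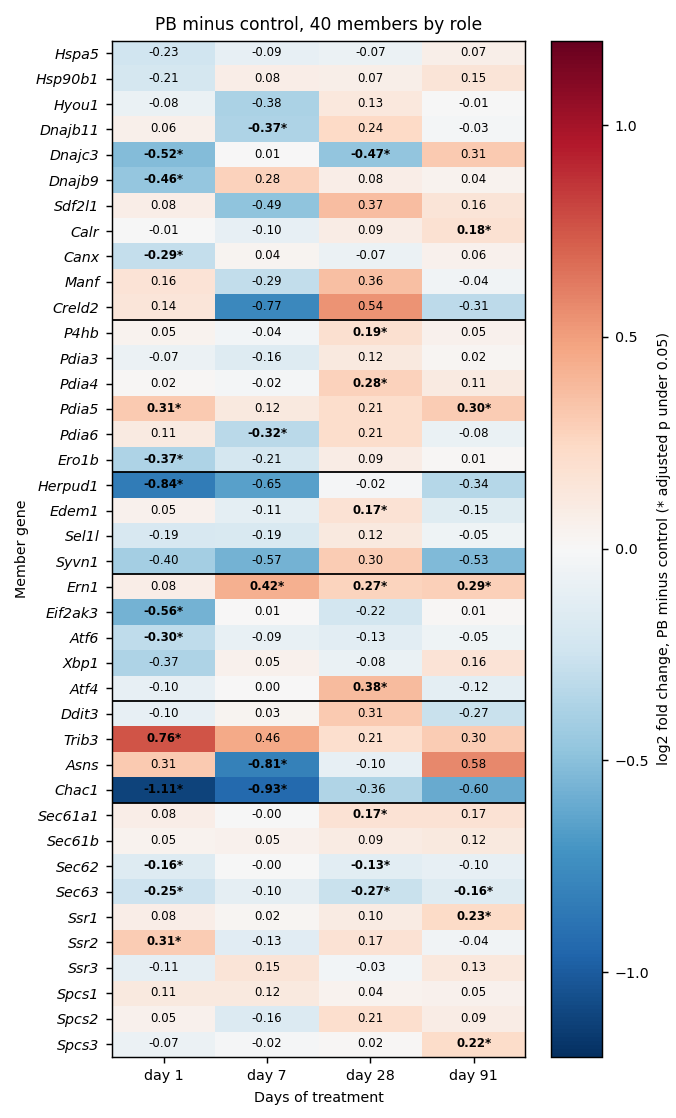
Log2 difference (PB minus control) of the 40 genes, down the page by role, at the 4 times across; asterisks mark limma adjusted p under 0.05. Most cells lie near 0, and the deepest are Chac1 (-1.11) and Herpud1 (-0.84) at day 1 and Chac1 (-0.93) at day 7.

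Lumenal chaperones bind unfolded chains, and among these 11 genes 0 were called higher at days 1, 7 and 28. Of all tested genes 15.8%, 5.64% and 11.2% were called higher on these days. At day 1, 3 of the 11 were lower (Dnajc3, Dnajb9 and Canx), at day 7, 1 (Dnajb11), at day 28, 1 (Dnajc3), and at day 91, 1 was higher (Calr). The background was 16.7%, 11.4% and 18.1% lower at days 1, 7 and 28, and 4.62% higher at day 91. Hspa5, the Hsp70 chaperone BiP and the most used marker of ER stress, had 13.43, 13.65, 13.92, 13.76 and 13.66 in PB livers, against 13.97, 14.13, 13.79 and 13.79 in control livers at day 1. PB replicate 3 (13.92), the array with high pancreas genes, lay among the controls, and the other PB arrays lay below them all. The Hspa5 difference of -0.23 was not called (SE 0.11, adjusted p = 0.114, 95% interval -0.47 to -0.00), and the groups overlapped. At day 7 it had 13.53, 13.15, 13.64, 13.34 and 13.45 in PB livers, against 13.32, 13.75, 13.57, 13.73 and 13.21 in control livers, with a difference of -0.09 (SE 0.11, adjusted p = 0.593). The mean signal of BiP was lowest at day 7 in both groups. At day 28 it had 13.72, 13.74, 13.71, 13.81 and 14.21 in PB livers, against 13.80, 14.04, 13.86, 13.93 and 13.90 in control livers, with a difference of -0.07 (SE 0.11, adjusted p = 0.678). At day 91 it had 13.86, 13.60, 14.02, 13.98 and 14.07 in PB livers, against 13.79, 13.84, 13.76, 13.72 and 14.05 in control livers, with a difference of 0.07 (SE 0.11, adjusted p = 0.683). The groups overlapped at each time, and the intervals ran from -0.31 to 0.13 at day 7, -0.29 to 0.15 at day 28 and -0.15 to 0.29 at day 91. The other 2 probe sets of Hspa5 were not called at any time either.

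Hsp90b1, the lumenal Hsp90 paralogue GRP94, was also called at 0 of the 4 times by the probe set used. Its second probe set passed as lower at day 1, with -0.56 (adjusted p = 0.0424 over all probe sets). At day 1 it had 12.53, 12.80, 13.26, 13.02 and 12.95 in PB livers, against 12.97, 13.37, 13.11 and 13.04 in control livers, with a difference of -0.21 (SE 0.12, adjusted p = 0.162), and the groups overlapped. At day 91 it had 12.99, 12.84, 13.05, 12.93 and 13.05 in PB livers, against 12.72, 12.84, 12.89, 12.71 and 12.93 in control livers, again overlapping, with a difference of 0.15 (SE 0.11, adjusted p = 0.331). At days 7 and 28 its differences were 0.08 and 0.07.

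Canx, the membrane lectin calnexin that holds glycoproteins until they fold, was lower in PB livers at day 1. It had then 12.04, 12.31, 12.42, 12.34 and 12.35 in PB livers, against 12.47, 12.56, 12.60 and 12.68 in control livers, and every PB array lay below every control array. It fell by 0.29 in log2 units (limma SE 0.07, adjusted p = 0.00118). All 3 of its probe sets passed the test at day 1, with differences of -0.41 to -0.25, and 1 of the others also at day 7 (-0.33). At days 7, 28 and 91 its differences were 0.04, -0.07 and 0.06 and the groups overlapped.

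Dnajb11, an Hsp40 partner of BiP, fell at day 7. It had 10.79, 10.50, 10.87, 10.54 and 10.73 in PB livers, against 10.96, 11.18, 11.03, 11.20 and 10.93 in control livers, without overlap, a fall of 0.37 in log2 units (SE 0.11, adjusted p = 0.018). The call was lost without PB replicate 2 or 4 of that day. Dnajc3, a co-chaperone that also inhibits PERK, fell by 0.52 at day 1 (SE 0.17, adjusted p = 0.0161) and by 0.47 at day 28 (SE 0.16, adjusted p = 0.0235), with overlapping groups both times. The day 1 call was lost without control replicate 1 or 2 of that day, and the day 28 call without PB replicate 2, 3 or 4 or control replicate 2 or 4 of that day, and also with the mean of its probe sets. Dnajb9, a BiP partner that represses IRE1, fell by 0.46 at day 1 (SE 0.18, adjusted p = 0.0432). That call was lost without PB replicate 1, 3 or 5 or control replicate 1 or 4 of that day, and also with quantile normalisation, after median centring, with array weights, with a robust prior or with that day's arrays fitted alone. Control replicate 1 (12.17) stood above the other 3 controls (10.86 to 11.50). Without it the Dnajb9 difference was -0.21. Calr, the soluble counterpart of calnexin, rose by 0.18 at day 91 (SE 0.05, adjusted p = 0.0172), a call lost without PB replicate 3 or control replicate 1 of that day, and also with the mean of its probe sets or with that day's arrays fitted alone. Hyou1, Sdf2l1, Manf and Creld2 were called at no time by the probe sets used, and their differences ranged from -0.77 (Creld2, day 7) to 0.54 (Creld2, day 28). Another probe set of Hyou1, a relative of Hsp70 that acts with BiP, passed as lower at day 7 (-0.68, adjusted p = 0.0286 over all probe sets) and as higher at day 28 (0.63, adjusted p = 0.0238).

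The disulfide isomerases form and reshuffle the disulfide bonds of secreted proteins. At day 28 all 6 genes of this role had differences above 0 (0.09 to 0.28), and 2 of them were called, P4hb with 0.19 (SE 0.06, adjusted p = 0.0111) and Pdia4 with 0.28 (SE 0.10, adjusted p = 0.0304). On that day 5801 of all 12580 tested genes had differences above 0, and 11.2% were called higher. The P4hb call was lost without control replicate 4 of that day, and the Pdia4 call without PB replicate 2, 4 or 5 or control replicate 1 or 4 of that day. Pdia5 rose at day 1 by 0.31 (SE 0.10, adjusted p = 0.013) and at day 91 by 0.30 (SE 0.09, adjusted p = 0.0179). The day 1 call was lost without control replicate 4 of that day, and the day 91 call without PB replicate 1 or 3 or control replicate 3 of that day, and also with that day's arrays fitted alone. Pdia6 at day 7 had 11.89, 11.76, 12.06, 11.65 and 12.03 in PB livers, against 12.07, 12.20, 12.24, 12.29 and 12.18 in control livers. No array of the groups crossed, and Pdia6 fell by 0.32 in log2 units (SE 0.10, adjusted p = 0.0314), a call lost without PB replicate 2 or 4 or control replicate 2, 3 or 4 of that day, and also after median centring or with the mean of its probe sets. Ero1b, an oxidase that recharges the isomerases, fell by 0.37 at day 1 (SE 0.13, adjusted p = 0.033), a call lost without PB replicate 1 or 5 or control replicate 1, 2 or 4 of that day, and also after median centring. A dimmer probe set of Ero1b passed as lower at day 1 too (-0.78, adjusted p = 9e-06 over all probe sets), and the dimmest had -0.14 without a call. Pdia3 was called at no time by the probe set used (-0.16 to 0.12), whereas a dimmer one had -0.31 at day 1 (adjusted p = 0.0362) and -0.41 at day 7 (adjusted p = 0.00959).

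ER-associated degradation carries misfolded proteins out to the proteasome. Herpud1, a scaffold of the retrotranslocation complex, is given by array because its day 1 fall was seen to be large. It had 11.17, 10.83, 11.43, 11.27 and 10.53 in PB livers, against 12.29, 11.45, 12.35 and 11.43 in control livers at day 1. The highest PB array equalled the lowest control to 2 decimals (11.43), and Herpud1 fell by 0.84 in log2 units (SE 0.28, adjusted p = 0.02), a call lost without PB replicate 5 or control replicate 1 or 3 of that day. At day 7 its difference of -0.65 was not called (SE 0.26, adjusted p = 0.0842). Its other probe set had -0.68 at day 1 without passing (adjusted p = 0.0541 over all probe sets) and passed at day 7 with -0.78 (adjusted p = 0.0373). Edem1, which delivers mannose-trimmed glycoproteins for degradation, rose by 0.17 at day 28 (SE 0.06, adjusted p = 0.0195), whereas its other probe set had -0.05 and passed as lower at day 1 (-0.28, adjusted p = 0.0104). The call was lost without PB replicate 2 or control replicate 4 of that day, and also with the mean of its probe sets. The E3 ligase Syvn1 and its adaptor Sel1l were called at no time. Syvn1 had -0.40, -0.57, 0.30 and -0.53 at the 4 times, none past the test (adjusted p = 0.104 at the lowest).

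Among the sensors, mRNAs of PERK and ATF6 were lower at day 1 and that of IRE1 was higher from day 7. Eif2ak3 had 8.23, 8.28, 8.06, 8.19 and 8.08 in PB livers, against 9.24, 8.54, 8.59 and 8.56 in control livers at day 1. Every PB array was below every control, and it fell by 0.56 in log2 units (limma SE 0.14, adjusted p = 0.00208). Day 1 control replicate 1 stood above the other controls, and the call held without it. The differences were 0.01 at days 7 and 91 and -0.22 at day 28 (SE 0.13, adjusted p = 0.208), with signals of 7.95 to 8.50 in PB livers and 8.17 to 8.45 in control livers at day 7. The dimmer probe sets of Eif2ak3 had 0.08 and -0.19 at day 1 without a call. Their means of 5.33 and 4.53 lay under the lowest array median (5.69). The dimmest passed as lower at day 91 (-0.25, adjusted p = 0.0474 over all probe sets).

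Atf6 had 8.70, 8.82, 8.86, 8.90 and 8.68 in PB livers, against 9.31, 9.11, 8.94 and 9.03 in control livers at day 1, again without overlap, and fell by 0.30 (SE 0.09, adjusted p = 0.00817). Its call was lost without day 1 control replicate 1 or with the mean of its probe sets, and its other 2 probe sets had -0.09 and -0.08 without a call. At the later times its differences were -0.13 to -0.05.

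Ern1 had 11.05, 10.78, 10.82, 11.16 and 11.09 in PB livers, against 10.42, 10.54, 10.54, 10.65 and 10.61 in control livers at day 7. Each PB array was above each control, and Ern1 rose by 0.42 (SE 0.09, adjusted p = 0.000821). At day 28 it had 11.42, 11.09, 11.11, 11.22 and 11.36 in PB livers, against 11.09, 10.93, 11.03, 11.05 and 10.73 in control livers, with overlapping groups, and rose by 0.27 (SE 0.09, adjusted p = 0.0175). At day 91 it had 11.23, 11.15, 11.22, 11.15 and 11.31 in PB livers, against 11.10, 10.77, 10.96, 10.64 and 11.14 in control livers, and rose by 0.29 (SE 0.09, adjusted p = 0.0167). The day 28 call was lost without PB replicate 1 or control replicate 5 of that day, and also with the mean of its probe sets or with array weights, and the day 91 call without control replicate 2 or 4 of that day, and also with the mean of its probe sets. All these calls belong to 1 probe set. The other 4 probe sets of Ern1 were not called at days 7, 28 or 91, and with the mean of all 5 the call was lost at each of these times. One of the others passed as lower at day 1 (-0.50, adjusted p = 0.0396), where the probe set used had 0.08.

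Of the 2 transcription factors downstream, Xbp1 was called at no time and Atf4 once by the probe sets used. Xbp1 had 12.27, 12.65, 12.85, 12.72 and 12.74 in PB livers, against 13.02, 13.24, 13.07 and 12.73 in control livers at day 1. Its difference of -0.37 missed the threshold (SE 0.15, adjusted p = 0.0648), and at days 7, 28 and 91 it was 0.05, -0.08 and 0.16. A dimmer probe set of Xbp1 passed as lower at day 1 (-0.69, adjusted p = 0.0086) and at day 28 (-0.61, adjusted p = 0.0151). Atf4 had 11.95, 11.62, 11.26, 11.52 and 11.43 in PB livers, against 11.30, 11.23, 11.09, 11.06 and 11.22 in control livers at day 28, with 1 PB array among the controls, and rose by 0.38 (SE 0.11, adjusted p = 0.0122). The Atf4 call was lost without PB replicate 1 of that day, and also with the mean of its probe sets. Its other 2 probe sets had -0.02 and 0.07 at day 28, and 1 of them had -1.09 at day 1 (adjusted p = 1.92e-05). At days 1, 7 and 91 the Atf4 differences were -0.10, 0.00 and -0.12.

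Targets of the ATF4-CHOP arm moved in opposite directions at day 1. Trib3, a pseudokinase that restrains this arm, had 7.99, 7.23, 7.36, 7.30 and 7.38 in PB livers, against 7.15, 6.52, 6.59 and 6.52 in control livers at day 1. All PB arrays were above all controls, and Trib3 rose by 0.76 (SE 0.19, adjusted p = 0.00268). Its second probe set rose by 0.87 at day 1. At day 7 the Trib3 signals were 7.22 to 7.94 in PB livers and 6.74 to 7.33 in control livers, and the difference of 0.46 was not called (SE 0.18, adjusted p = 0.0781), although the second probe set was called there with 1.05.

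Chac1, a glutathione-degrading enzyme that CHOP and ATF4 induce, went the other way. It had 6.41, 6.48, 6.29, 6.15 and 6.15 in PB livers, against 7.78, 7.32, 7.10 and 7.43 in control livers at day 1, with a gap between the groups, and fell by 1.11 in log2 units (SE 0.31, adjusted p = 0.00522). At day 7 it had 7.04, 6.47, 7.34, 6.36 and 7.04 in PB livers, against 7.40, 7.74, 7.28, 8.16 and 8.31 in control livers, with overlapping groups, and its fall of 0.93 (SE 0.29, adjusted p = 0.0237) was no longer called without PB replicate 2 or 4 or control replicate 4 or 5 of that day. At days 28 and 91 its differences of -0.36 and -0.60 were not called.

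Asns, the asparagine synthetase, had 6.996, 7.337, 8.489, 8.001 and 8.050 in PB livers, against 7.821, 8.319, 8.285, 9.422 and 9.065 in control livers at day 7. The groups overlapped, and it fell by 0.81 (SE 0.28, adjusted p = 0.0429). This call was lost without PB replicate 1, 2 or 4 or control replicate 4 or 5 of that day, and also with quantile normalisation, after median centring, with a robust prior or with that day's arrays fitted alone. A dimmer probe set of Asns passed as lower at day 7 (-1.36, adjusted p = 0.0232 over all probe sets). It also passed as lower at day 28 (-1.26, adjusted p = 0.0187), where the probe set used had -0.10. At day 91 the probe set used had a difference of 0.58 without a call (SE 0.28, adjusted p = 0.141). Ddit3, which encodes CHOP, was called at no time. It had 8.58, 8.68, 8.13, 8.41 and 8.81 in PB livers, against 8.27, 8.31, 8.42, 8.04 and 8.01 in control livers at day 28, with a difference of 0.31 (SE 0.18, adjusted p = 0.195), and at days 1, 7 and 91 its differences were -0.10, 0.03 and -0.27.

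**Figure D2:**
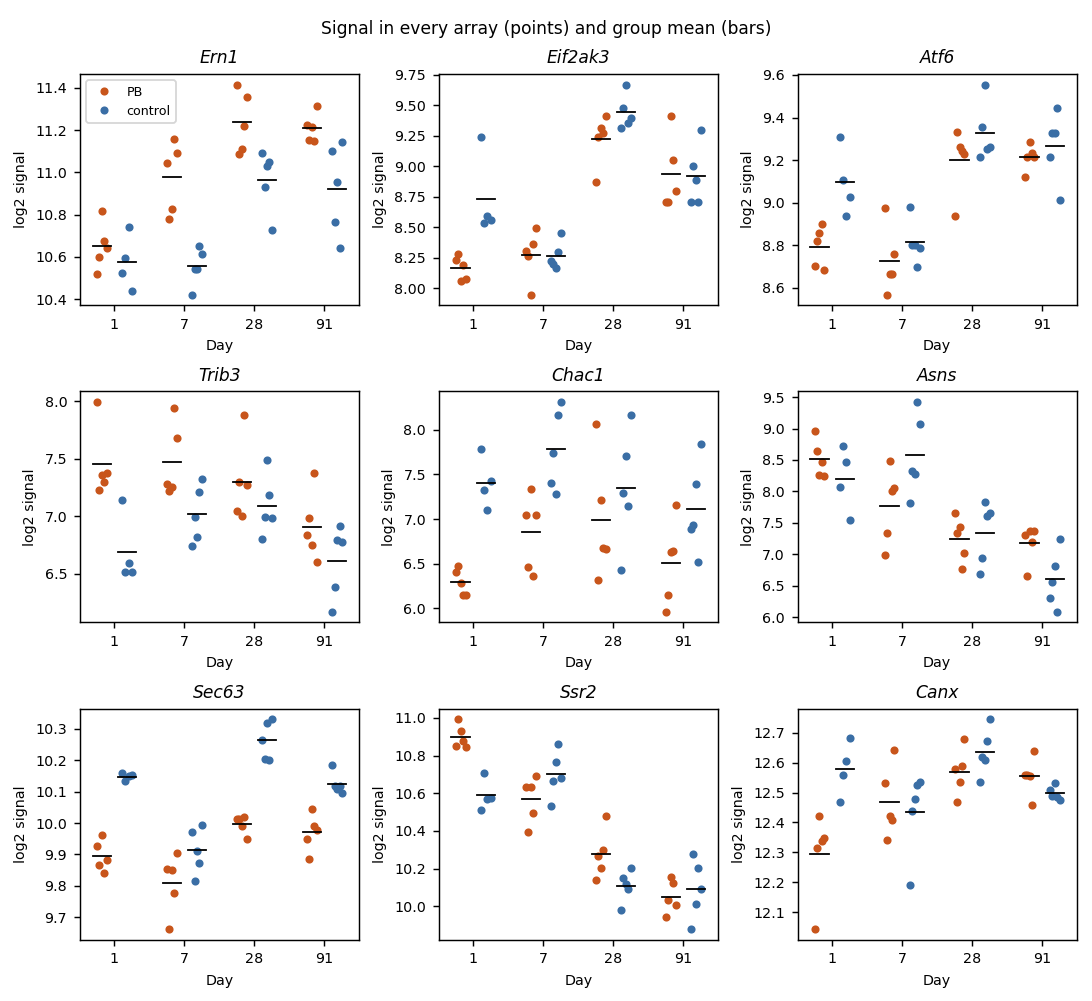
Log2 signal of 9 genes in every array (points; bars are group means) by day, PB left of control. The day 1 groups are apart for Eif2ak3, Atf6, Trib3, Chac1, Sec63, Ssr2 and Canx. Sec63 is also apart at days 28 and 91, and Ern1 at days 7 and 91.

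The translocon threads new chains into the ER. Of the 10 genes of its role, 1 was higher and 2 were lower at day 1, 0 were called at day 7, 1 was higher and 2 were lower at day 28, and 2 were higher and 1 lower at day 91. Background shares, higher and lower, were 15.8% and 16.7% at day 1 and 5.64% and 11.4% at day 7. They were 11.2% and 18.1% at day 28 and 4.62% and 16.1% at day 91. Sec61a1, which forms the channel, had 12.18, 12.24, 12.18, 12.37 and 12.37 in PB livers, against 11.96, 12.18, 12.15, 12.01 and 12.17 in control livers at day 28 and rose by 0.17 (SE 0.06, adjusted p = 0.0373), with groups that overlapped near 12.18. The call was lost without PB replicate 2, 4 or 5 or control replicate 1 or 4 of that day, and also with quantile normalisation or with the mean of its probe sets. Another of its probe sets passed as higher at days 1 and 28, with 0.42 and 0.43. At day 91 its difference was also 0.17 but missed the threshold (SE 0.06, adjusted p = 0.0516). Sec61b, a small subunit of the channel, had 12.23, 12.13, 12.33, 12.22 and 12.20 in PB livers, against 12.09, 12.05, 12.05, 12.15 and 12.15 in control livers at day 91, and its difference of 0.12 missed the threshold too (SE 0.04, adjusted p = 0.0501).

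Sec63, a membrane J-protein that recruits BiP to the channel, was lower at 3 of the 4 times. At day 1 it had 9.93, 9.87, 9.96, 9.84 and 9.88 in PB livers, against 10.16, 10.13, 10.15 and 10.15 in control livers, and fell by 0.25 in log2 units (limma SE 0.05, adjusted p = 7.95e-05). At day 28 it had 10.01, 10.01, 9.99, 10.02 and 9.95 in PB livers, against 10.26, 10.20, 10.32, 10.20 and 10.33 in control livers, and fell by 0.27 (SE 0.04, adjusted p = 3.12e-05). At day 91 it had 9.95, 9.89, 10.05, 9.99 and 9.98 in PB livers, against 10.19, 10.12, 10.11, 10.12 and 10.10 in control livers, and fell by 0.16 (SE 0.04, adjusted p = 0.0109). The groups did not overlap at any of these times, and at day 7 the difference was -0.10 (SE 0.04, adjusted p = 0.0975). At day 1 4 of its 5 probe sets were lower past the test over all probe sets, and 3 were at day 28. The day 91 call was lost with arrays centred on their median, with the mean of all its probe sets and with that day's arrays fitted alone.

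Sec62, its partner in post-translational translocation, was lower at days 1 and 28. At day 1 it had 11.30, 11.30, 11.28, 11.26 and 11.35 in PB livers, against 11.59, 11.37, 11.42 and 11.45 in control livers, and fell by 0.16 (SE 0.05, adjusted p = 0.0116). At day 28 it had 11.38, 11.29, 11.38, 11.38 and 11.34 in PB livers, against 11.49, 11.51, 11.54, 11.46 and 11.43 in control livers, and fell by 0.13 (SE 0.05, adjusted p = 0.0295). PB arrays were below all controls on both days. The day 1 call was lost without control replicate 1 of that day, and also after median centring. The day 28 call was lost without PB replicate 2 or 5 or control replicate 1, 2 or 3 of that day, and also after median centring. Of its other 4 probe sets at day 1, 3 had -0.86 to -0.51 and 1 had 0.27, each past the test over all probe sets.

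The TRAP complex assists the channel. Ssr2 had 10.85, 10.99, 10.93, 10.88 and 10.85 in PB livers, against 10.51, 10.71, 10.57 and 10.58 in control livers at day 1, with no overlap, and rose by 0.31 (SE 0.07, adjusted p = 0.00175). At day 7 its difference was -0.13. Ssr1 had 11.60, 11.43, 11.64, 11.53 and 11.60 in PB livers, against 11.34, 11.26, 11.42, 11.30 and 11.31 in control livers at day 91, also apart, and rose by 0.23 (SE 0.06, adjusted p = 0.00808). Its second-brightest probe set had 0.002 at day 91 and passed as higher at day 1 (0.27, adjusted p = 0.0157 over all probe sets). Of the dimmer ones, 1 passed as higher at day 91 (0.38, adjusted p = 0.0232) and 1 had 0.23 without a call. Ssr3 was called at no time (-0.11 to 0.15). Of the signal peptidase genes, Spcs3 rose by 0.22 at day 91 (SE 0.08, adjusted p = 0.0351), a call lost without PB replicate 3, 4 or 5 or control replicate 2, 4 or 5 of that day, while Spcs1 and Spcs2 were called at no time by the probe sets used (-0.16 to 0.21). A dim second probe set of Spcs1 passed at day 7 (-0.51, adjusted p = 0.00993), and one of Spcs2 at day 28 (0.21, adjusted p = 0.0168).

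The arrays of the groups did not overlap for some of these genes. At day 1, 2 genes lay wholly above and 6 wholly below the controls, where 12.8% and 13.1% of all tested genes did. At day 7 the counts were 1 and 2 (background 3.61% and 7.61%), at day 28, 0 and 2 (background 5.80% and 9.59%), and at day 91, 4 and 1 (background 2.54% and 8.75%).

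Some arrays and technical measures moved with the groups. Without day 1 PB replicate 3, the array with pancreas genes, 3 were called higher and 11 lower at day 1, and without day 1 control replicate 1 only 4 were lower. Without day 7 PB replicate 3, the array with the highest immune cell genes, 1 was higher and 5 were lower at day 7. On that day 0 were called lower without PB replicate 2 or without PB replicate 4, and 1 without control replicate 4. The mean of 18 spike-in probe sets at day 1 was 10.55 to 10.85 in PB livers and 10.91 to 10.97 in control livers, and at day 7 it was 10.76 to 10.97 in PB livers and 9.58 to 10.27 in control livers. With it as a covariate 0 of the 40 were called at day 7 in either direction, where 2.79% of all tested genes were called higher and 3.97% lower. The 3′ minus 5′ difference of control probe sets at day 28 was 0.423 to 0.503 in PB livers and 0.516 to 0.806 in control livers, and with it as a covariate 1 was called higher and 1 lower, where 3.27% and 4.90% of all tested genes were. Either covariate ended the day 28 calls of Dnajc3, P4hb, Pdia4, Edem1, Atf4, Sec61a1 and Sec62 and the day 91 call of Spcs3. The code in the title of 1 day 28 control, replicate 2, lies apart from the codes of the rest. Leaving that array out gave 1 gene lower at day 28. Beside the day 28 results, 6 of 8 endothelial markers were lower, with list means of 8.49 to 8.92 in PB livers and 8.78 to 9.26 in control livers. Of 8 stellate cell markers 5 were lower, with list means of 8.33 to 8.81 in PB livers and 8.96 to 9.10 in control livers. At day 91, 4 of the stellate cell markers and 2 of the endothelial markers were lower, and at day 7, 3 and 2. Stellate list means at day 91 were 8.43 to 8.62 in PB livers and 8.75 to 8.94 in control livers. At day 7 they were 9.05 to 9.31 in PB livers and 9.26 to 9.63 in control livers, and 1 marker of each list was lower at day 1. Of all tested genes 18.1% were called lower at day 28, 16.1% at day 91, 11.4% at day 7 and 16.7% at day 1. The part of endothelial and stellate cells in the results was not tested.

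Other genes of these pathways were read from lists of the same kind, at the same call rule. Of all tested genes 15.8% were called higher and 16.7% lower at day 1, and 5.64% and 11.4% at day 7. At day 28 these shares were 11.2% and 18.1%, and at day 91 they were 4.62% and 16.1%. Whether a list differed from these shares was not tested. Of 23 other ER chaperones and oxidoreductases, 3 were higher and 2 lower at day 1, 1 and 4 at day 7, 2 and 4 at day 28, and 1 and 2 at day 91. Dnajc1, a membrane J-protein, fell by 0.76 at day 1 (adjusted p = 0.000481) and by 0.79 at day 28 (adjusted p = 0.000243). Of 18 other genes of degradation, 3 passed as higher and 5 as lower at day 1, 1 and 1 at day 7, 4 and 3 at day 28, and 0 and 1 at day 91. Of 26 other genes of targeting, translocation and N-glycosylation, 5 were higher and 3 lower at day 1, 1 and 5 at day 7, 8 and 3 at day 28, and 7 and 3 at day 91. Tram2, a translocon-associated protein, was lower at all 4 times, by 0.27, 0.41, 0.40 and 0.35, and Emc1, a subunit of the membrane protein insertase EMC, rose by 0.42 at day 1 and by 0.30 at day 28.

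Of 27 other ATF4 targets and amino acid response genes, 4 passed as higher and 5 as lower at day 1, 1 and 4 at day 7, 3 and 0 at day 28, and 0 and 3 at day 91. The background shares for this list and the next are those given for the lists above. Shmt2, a mitochondrial enzyme of serine and folate metabolism, rose by 0.61 at day 1 and by 0.39 at day 28, and Gpt2, an alanine aminotransferase, fell by 0.40 at day 1. The stress factor Atf3 rose by 0.80 at day 28 (adjusted p = 0.019). Among 18 other regulators of the response, 1 was higher and 3 lower at day 1, 0 and 3 at day 7, 1 and 5 at day 28, and 0 and 1 at day 91.

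Whether the PB effect differed between times was tested directly. It did for 10 of the 40 genes by limma's F test (adjusted p under 0.05), where 35.1% of all tested genes passed. They were Dnajb11, Dnajc3, Calr, Canx, Pdia6, Edem1, Eif2ak3, Atf4, Asns and Ssr2. At day 7 relative to day 1 the effect was higher for Dnajb9, Canx, Ern1 and Eif2ak3 and lower for Pdia6, Asns and Ssr2 (background 8.16% and 13.1%). For Canx this step was 0.32 (adjusted p = 0.0112) and for Ssr2 -0.44 (adjusted p = 0.00248). At day 28 relative to day 7 it was higher for Dnajb11 (0.62, adjusted p = 0.0124), Pdia6 (0.53, adjusted p = 0.0202), Edem1 (0.29, adjusted p = 0.0201) and Ssr2 (0.30, adjusted p = 0.0426), and lower for 0 genes. Of all tested genes, 5.98% rose and 5.78% fell in that step. At day 91 relative to day 28 it was higher for Dnajc3 (0.79, adjusted p = 0.0140) and lower for Edem1 (-0.32, adjusted p = 0.00692) and Atf4 (-0.50, adjusted p = 0.0268), with a background of 9.13% and 12.5%.

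The differences at days 7 and 28 had opposite signs for 23 of the 40 genes, where 41.6% of all tested genes did. Across the 40 genes they had Pearson r = -0.01, against 0.49 over all 12580 genes, a description only, since genes are not independent. Over the 6 pairs of times the r across the 40 genes ran from -0.08 (days 28 and 91, against 0.41 over all genes) to 0.58 (days 1 and 28, against 0.66). For days 1 and 91 it was the higher of the 2 values, with 0.53 against 0.17 over all genes. Creld2, an ER chaperone that rises in ER stress, was chosen here after its values were seen. It had 9.52 to 11.19 in PB livers and 9.93 to 11.57 in control livers at day 7, and 10.99 to 12.47 in PB livers and 10.37 to 11.69 in control livers at day 28. The groups overlapped at both times, and its differences of -0.77 and 0.54 were not called (SE 0.35, adjusted p = 0.126 at day 7 and SE 0.35, adjusted p = 0.25 at day 28), nor was the step between them (1.31, adjusted p = 0.0746).

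**Figure D3:**
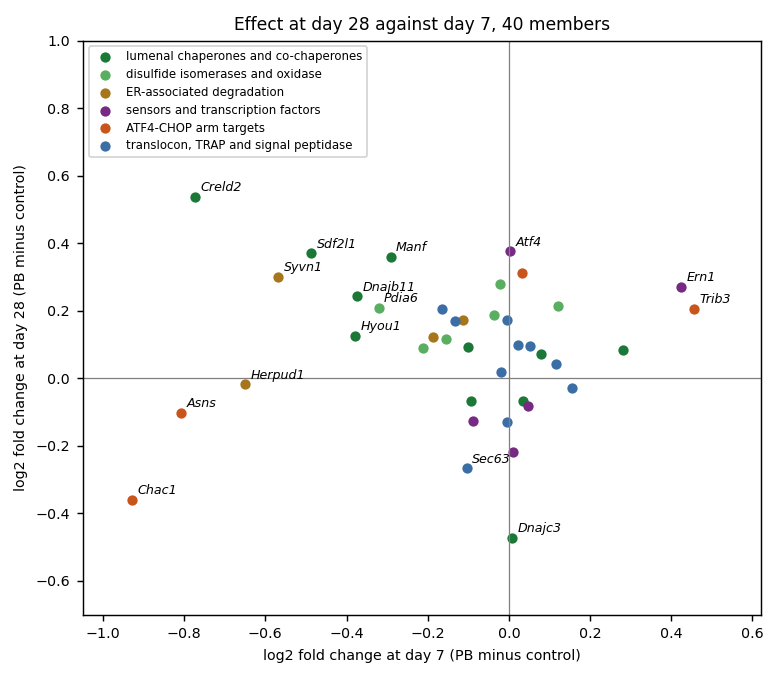
Log2 difference (PB minus control) at day 28, vertical, against that at day 7, horizontal, for the 40 genes, coloured by role. Creld2, Sdf2l1, Syvn1, Manf, Hyou1, Dnajb11 and Pdia6 lie below 0 at day 7 and above 0 at day 28, and Ern1 and Trib3 lie above 0 at both.

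Levels also differed between times within the groups. In control livers 29 of the 40 changed over the 4 times (F test), where 66.0% of all tested genes did. At day 28 relative to day 7, 12 were higher and 7 lower in controls (background 19.8% and 26.5%). Dnajb9 rose by 1.45 in that step (adjusted p = 4.83e-08), Eif2ak3 by 1.17 and Ddit3 by 0.68. Ddit3 averaged 7.33 ± 0.16 in PB livers (SD, n = 5) and 7.43 ± 0.07 in control livers (SD, n = 4) at day 1, and 8.86 ± 0.58 in PB livers (SD, n = 5) and 9.13 ± 0.43 in control livers (SD, n = 5) at day 91. Asns fell by 1.24 in controls at day 28 relative to day 7, and Ssr2 fell by 0.59. Dnajb9 averaged 10.95 ± 0.21 in PB livers (SD, n = 5) and 11.41 ± 0.57 in control livers (SD, n = 4) at day 1, and 12.54 ± 0.24 in PB livers (SD, n = 5) and 12.45 ± 0.13 in control livers (SD, n = 5) at day 28. The labels give no batch, so age, time on study and processing of each time's arrays cannot be told apart in these steps.

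**Figure D4:**
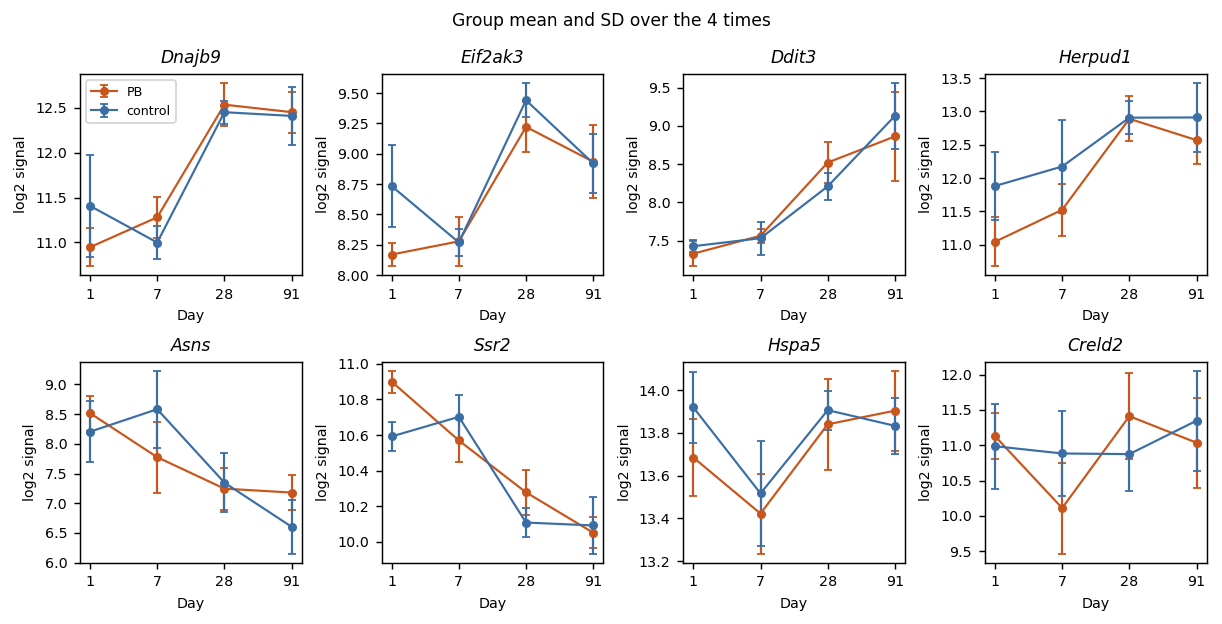
Mean log2 signal (points) and SD (bars) of 8 genes over days 1, 7, 28 and 91 for PB and control livers. Both lines of Dnajb9 and Ddit3 end higher at day 91 than at day 1, and both lines of Asns and Ssr2 end lower.

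The genes also varied together from array to array within a group. The median SD within groups was 0.18 for the 40 genes and 0.14 for all tested genes, and was highest for Creld2 (0.59), Chac1 (0.49), Asns (0.47), Herpud1 (0.44) and Syvn1 (0.41). After each group's mean was removed, Hspa5 was set against the 12579 other tested genes over the 39 arrays, with permutation within groups. Of the 39 other genes of this set 19 correlated with it (adjusted p under 0.05, 2-sided), all positively, where 3.07% of all genes did, and 15 were among the 100 genes with the highest r. Creld2 had the highest r of all (r = 0.83, rho = 0.82, permutation p = 1e-05, the smallest 100000 permutations can give, adjusted p = 0.0030). Within the set, Hsp90b1 (0.82), Sdf2l1 (0.80), Manf (0.80), Hyou1 (0.80), Dnajb11 (0.77), Sec61a1 (0.73) and Xbp1 (0.70) followed. Among all genes their ranks were 5, 6, 7, 8, 12, 20 and 32. The r of Creld2 was 0.79 without the 2 arrays farthest in Hspa5, 0.89 in the 20 PB arrays and 0.78 in the 19 control arrays.

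Genes of the ATF4 arm did not pass. Atf4 (r = -0.02), Trib3 (-0.12), Asns (0.19), Chac1 (0.21) and Ddit3 (0.40) had adjusted p of at least 0.181, and none of Sec63 (-0.03), Sec62 (-0.18) and the sensors Ern1 (0.32), Eif2ak3 (0.16) and Atf6 (0.08) passed. Of the 8 other genes with an ERSE in the promoter window 7 correlated with Hspa5 (Canx, at 0.38, did not), 1 of the 2 with an ERSE-II did, and of the 4 with a CARE 0 did. Of the 25 genes whose window held no ERSE, the 2 with an ERSE-II among them, 8 correlated, and of the 6 without a matched window 4 did. All of the 8 other ERSE genes but Syvn1 are chaperones, isomerases or oxidases, so motif and role cannot be told apart here. Without a found ERSE, the chaperones Hyou1, Dnajb11, Sdf2l1 and Manf and the isomerases Pdia3 and Pdia4 also correlated, whereas Dnajb9, P4hb and Pdia5 did not. Within roles, pairs of genes had a median r of 0.57 for the 55 pairs of chaperones, 0.57 for the 15 pairs of isomerases and oxidases, 0.39 for degradation, 0.30 for translocon, TRAP and signal peptidase, 0.22 for ATF4-CHOP targets and -0.05 for sensors and factors. It was 0.01 over all pairs of tested genes. Points share arrays and normalization. The deviations of Hspa5 had r = -0.12 with the spike-in mean and 0.08 with the 3′ minus 5′ difference, and 21 and 20 genes correlated once these were removed (background 4.50% and 3.64%). Without the 2 arrays farthest in Hspa5, 14 genes passed (background 0.739%). Without day 1 PB replicate 3, the array with pancreas genes, 17 did (background 1.73%). In the PB arrays alone 17 passed, where 1.41% of all genes did, and in the control arrays alone 0 passed, where 0 of all genes did. These alternative counts used fewer permutations than the main run, so the smallest p they could give was larger. The comparison with Hspa5 was chosen after the values were seen.

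**Figure D5:**
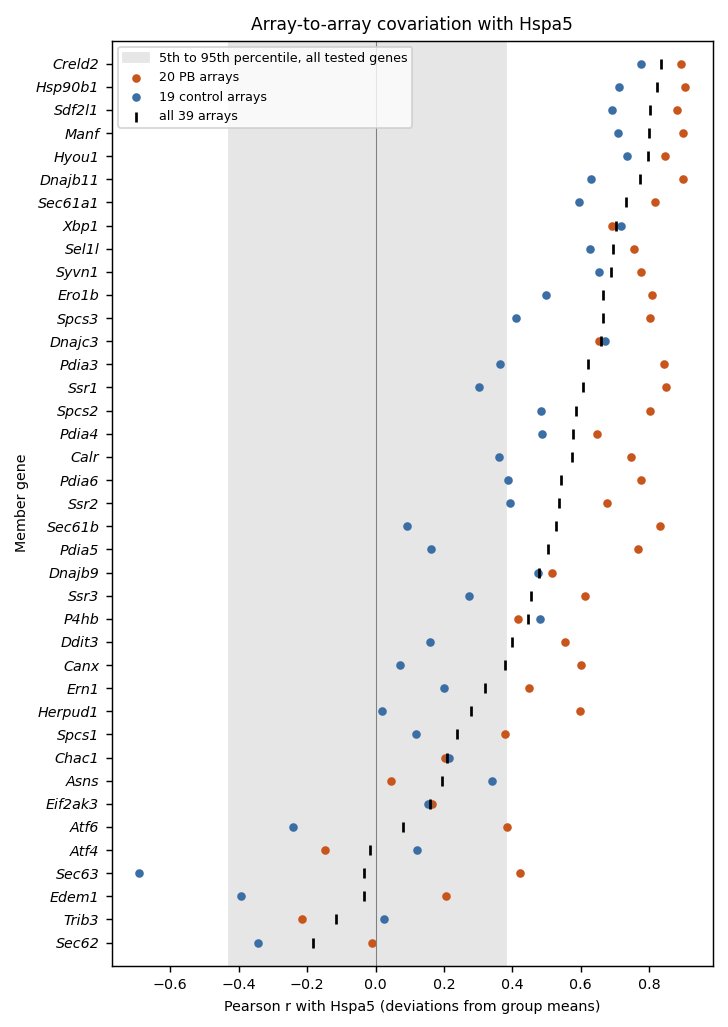
Pearson r of each gene's deviations from its group means with those of Hspa5, in PB arrays (orange), control arrays (blue) and all 39 (black ticks). Grey marks the 5th to 95th percentile over all tested genes (-0.43 to 0.38), and Creld2, Hsp90b1, Sdf2l1, Manf and Hyou1 lie beyond it in both sets of arrays. The band is from r over all 39 arrays and does not give the spread of r in PB or control arrays alone.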

How the data were processed

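Liver RNA of 39 mouse samples was hybridised to Affymetrix GeneChip arrays. The authors deposited 1 log2 signal per probe set and array (45101 probe sets). Per the submitters' processing notes GCOS was used, and the normalization is not given in the sources used here. The labels' treatment text names 28 days of dosing, whereas durations run to 91 days, and the durations were used. Arrays were grouped by treatment and duration, and replicates were numbered in accession order. Values were used as deposited. Each of 18193 genes took its single-symbol probe set of highest mean (34958 of 35890 annotated probe sets had 1 symbol), and 12580 genes above the array median on at least 4 arrays were tested. A model with 1 mean for each of 8 groups was fitted with limma 3.58.1 in R 4.3.3 (eBayes with trend, 31 residual and 4.46 prior degrees of freedom), with Benjamini-Hochberg adjustment over all tested genes and 95% intervals. F tests covered differences of the PB effect between times and changes in controls. Deviations from group means were correlated with Hspa5 by 100000 permutations within groups. The counts with arrays left out or a technical measure removed used fewer permutations. The fits were tested on simulated data. Values in every array are printed for Hspa5, Hsp90b1, Xbp1, Atf4, Ddit3, Asns, Trib3, Sec61a1 and Sec61b and, per role, for up to 4 called members whose groups did not overlap, by adjusted p. Each other pathway list is exemplified by up to 3 called genes a day, by adjusted p. Members, lists and tests were chosen with earlier results of these data known. Alternatives were 2 normalizations, 2 filters on dim genes, a robust prior, array weights, the mean of a gene's probe sets, single-day fits, 2 technical covariates and leaving out each array. No array pair was identical, and correlations within groups were 0.989 to 0.996.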

Additional observations from a re-analysis of the deposited data

Results flagged for a closer look

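Among 160 groups of arrays of the genes with per-array values, 13 held 1 array far from the others by Dixon's criterion, and chance alone flags about 1 in 20 groups. In PB livers these were Hspa5 in day 28 replicate 5 (14.21, others 13.71 to 13.81), Xbp1 in day 91 replicate 5 (13.18, others 12.59 to 12.70), Asns in day 91 replicate 2 (6.66, others 7.19 to 7.37), Trib3 in day 1 replicate 1 (7.99), Canx in day 1 replicate 1 (12.04), Pdia6 in day 1 replicate 1 (11.81) and Atf6 in day 28 replicate 1 (8.94). In control livers they were Trib3 in day 1 replicate 1 (7.15), Eif2ak3 in day 1 replicate 1 (9.24, others 8.54 to 8.59), Dnajb11 in day 1 replicate 2 (11.16), Pdia6 in day 1 replicate 3 (11.69), Canx in day 7 replicate 1 (12.19) and Sec63 in day 91 replicate 1 (10.19). The day 1 calls of Trib3, Canx and Eif2ak3 held without each of these arrays.

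The PB effect differed between the 4 times by limma's F test for 10 genes. The adjusted p was 0.00371 for Ssr2, 0.00583 for Edem1, 0.00944 for Dnajc3, 0.0122 for Canx, 0.0161 for Dnajb11, 0.0213 for Calr, 0.0231 for Pdia6, 0.0293 for Asns, 0.0423 for Atf4 and 0.045 for Eif2ak3. When the spike-in mean was added as a covariate, 0 passed.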

How the results depend on the processing

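Of the 33 calls, 8 were kept in every alternative and with each array left out (Canx, Eif2ak3, Trib3, Chac1, Sec63 and Ssr2 at day 1, Sec63 at day 28 and Ssr1 at day 91), and 0 reversed. The spike-in covariate kept 20 calls, the mean of a gene's probe sets 22, the 3′ minus 5′ covariate 25 and median centring 26. The cause of each loss was not tested. Counts that moved by over 1.5 times were as follows, with the share of all tested genes under the same setting in brackets where it was computed. At day 7 the count higher was 2 with quantile normalization (7.09%), median centring (7.4%) or array weights (7.4%) and 0 with the spike-in covariate (2.79%). The count lower was 2 with median centring (6.99%), 11 with array weights (15.7%) and 0 with the spike-in covariate (3.97%). At day 28 the count higher was 10 with median centring (15.4%) and 3 with the mean of probe sets (11.3%). It was 1 with the spike-in covariate (6.33%) and 1 with the 3′ minus 5′ covariate (3.27%). The count lower was 1 with either covariate (11% with the spike-in mean and 4.9% with the 3′ minus 5′ difference). At day 91 the count higher was 8 with array weights (8.08%). The count lower was 0 with median centring (8.55%), with the mean of probe sets (18.1%) or with that day's arrays alone. It was 3 with array weights (24.2%) and 2 with the spike-in covariate (12.4%). Time-dependent effects numbered 21 with array weights, 0 with the spike-in covariate and 5 with the 3′ minus 5′ covariate, and changes in controls 19 with the spike-in covariate. Genes correlated with Hspa5 numbered 0 in control arrays alone. Quantile normalization or centring shifted the median of all genes by at most 0.056.

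With each array left out in turn, the count higher ran from 2 to 3 at day 1, 1 to 2 at day 7, 2 to 10 at day 28 and 2 to 8 at day 91, and the count lower from 4 to 11, 0 to 5, 1 to 3 and 1 to 3. At day 7 the count higher was 2 without control replicate 4. At day 28 the count higher was 3 without PB replicate 2, 2 without control replicate 4 and 10 without control replicate 5, and the count lower was 1 without PB replicate 2 or control replicate 2. At day 91 the count higher was 8 without PB replicate 2, 2 without PB replicate 3 and 3 without control replicate 2 or 4, and the count lower was 2 without PB replicate 5 and 3 without control replicate 1. Time-dependent effects ran from 8 to 12 and changes in controls from 24 to 29. No paired analysis was possible because the labels give the samples no replicate numbers.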

Other observations

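Cytosolic heat shock genes, which fold proteins outside the ER, were higher in PB livers at days 1 and 28 for many of the list. Of 12 tested, 6 were higher at day 1, 1 at day 7, 10 at day 28 and 1 at day 91, and 0 were lower at any time. The background share passing as higher was 15.8%, then 5.64%, 11.2% and 4.62%. The day 28 groups also lay apart in the 3′ minus 5′ difference, and with that covariate the background share was 3.27%. Whether the day 28 rise of this list holds with that covariate was not tested. At day 28 Hspa1a, the inducible Hsp70, rose by 2.27 (limma adjusted p = 0.000922), the co-chaperone Bag3 by 1.15 and Stip1, which links Hsp70 and Hsp90, by 0.67. Of 18 genes of export in COPII vesicles, 4 were higher and 1 lower at day 1, 3 and 1 at day 7, 7 and 1 at day 28, and 3 and 2 at day 91. The background share passing as lower was 16.7%, 11.4%, 18.1% and 16.1% at the 4 times. Sar1b, the GTPase that starts COPII assembly, was higher at all 4 times, by 0.36, 0.44, 0.31 and 0.25.

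Of 15 genes of ER shape and of the P450 membrane, 5 were higher and 2 lower at day 1, 5 and 1 at day 7, 6 and 1 at day 28, and 5 and 2 at day 91. Background shares for this list and the next, higher and lower, were 15.8% and 16.7% at day 1 and 5.64% and 11.4% at day 7. They were 11.2% and 18.1% at day 28 and 4.62% and 16.1% at day 91. Cyb5a, cytochrome b5, was higher at all 4 times, by 0.19, 0.26, 0.16 and 0.16, and the ER-shaping reticulon Rtn4 fell by 0.50 at day 91. Of 16 genes of phospholipid synthesis, 0 were higher and 5 lower at day 1, 2 and 5 at day 7, 0 and 0 at day 28, and 0 and 4 at day 91. At day 28, 4 of the 16 had an unadjusted p under 0.05. Chka, a choline kinase, fell by 0.93 at day 1 and by 0.96 at day 7.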
